A study of Homo sapiens with 24 samples.

Results

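The 10 genes described here act in cholesterol synthesis and sterol handling. They were taken by gene symbol from the array's annotated probe sets: HMGCS1, IDI1, ACAT2, FDPS, MVK, HSD17B7, DHCR7, EBP, STARD4 and SOAT2, 10 of the 14884 genes measured. These genes and the lists used below were chosen with earlier results of these data known. Their counts set against the share of all genes are therefore descriptions, not independent support. HepG2, an established human hepatoma line that keeps many hepatocyte functions, was plated at 10000 cells per well in medium with 10% serum. Cells received 1 uM BRD8518 for 1 h (n = 3 arrays), 6 h (n = 2) or 24 h (n = 3), 100 ng/mL oncostatin M (OSM, a cytokine of the interleukin-6 family) for 1 h (n = 3) or 24 h (n = 3), or vehicle for 1 h (n = 3), 6 h (n = 4) or 24 h (n = 3). Every group shared 0.25% DMSO, OSM having been dissolved in PBS. The series was set up around compounds that induce TRIB1, and BRD8518 is known here only by its code name. The protocols mention 6 wells per treatment, but separate cultures are not stated for the arrays of a group, and the p-values here rest on array-to-array spread that could be purely technical.

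The mevalonate pathway turns acetyl-CoA into isoprenoid diphosphates, from which squalene, lanosterol and finally cholesterol are built. Liver cells regulate this route through SREBP2, a membrane-bound transcription factor that is cut and released to the nucleus when sterols in the endoplasmic reticulum run low, and that works at many promoters together with NF-Y, which binds CCAAT boxes, and Sp1, which binds GC boxes. Among the members, ACAT2 (cytosolic acetoacetyl-CoA thiolase) and HMGCS1 (HMG-CoA synthase) open the pathway, MVK phosphorylates mevalonate, IDI1 isomerises isopentenyl diphosphate and FDPS joins isoprene units into farnesyl diphosphate. HSD17B7, EBP and DHCR7 act on the sterol ring system after lanosterol. STARD4 carries sterol between membranes, and SOAT2 esterifies cholesterol for storage and lipoprotein packing. The symbol ACAT2 is the thiolase here, not the esterifying enzyme that shares the old name.

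Promoter windows were read to show what stands upstream of these genes, since 9 or more of the 10 members fell together with each treatment at 24 h. RefSeq promoter sequences (GRCh38.p14), each from 250 bases before to 50 bases after a gene's start, matched 8 of the 10 members (not ACAT2 and SOAT2) with 12 windows. A CCAAT box (CCAAT on either strand) was present in at least 1 window of 8 of these 8 genes and in 9 of 12 windows, against 39.7% of the 27305 genes and 34.6% of the 35116 windows in the whole table. The GC box (GGGCGG, either strand) was in 11 of 12 member windows, against 45.0% of all windows. A loose sterol regulatory element, TCACNCNAC on either strand, was in 2 of 12 windows, those of FDPS and HSD17B7, against 2.55% of all windows. Its strict form TCACCCCAC, which is a special case of the loose one, was in 0 of 12 (0.43% of all), as were the E box CACGTG (7.26%) and the STAT-type TTCNNNGAA (7.66%). At such shares 0 of 12 is not an unusual count and does not show that a motif is lacking. Some windows of HMGCS1 and of IDI1 overlap, so the 12 are not separate sequences. These motifs were picked with the members known, GC content was not matched, and a match is a description, not a binding site.

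The 4 windows below are shown because MVK and FDPS were already lower at 6 h of BRD8518, while HMGCS1 and STARD4, with all arrays in the fit, passed the test only at 24 h. Capitals mark CCAAT or its reverse complement ATTGG, and each sequence runs 5′ to 3′ along the gene.
MVK promoter, chr12:109573544-109573843, plus strand: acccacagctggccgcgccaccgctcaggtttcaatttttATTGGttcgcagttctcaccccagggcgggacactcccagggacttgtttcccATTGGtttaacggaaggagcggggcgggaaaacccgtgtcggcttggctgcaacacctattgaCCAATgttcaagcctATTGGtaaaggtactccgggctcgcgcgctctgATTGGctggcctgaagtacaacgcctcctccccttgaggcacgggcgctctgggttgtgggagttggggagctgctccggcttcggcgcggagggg
FDPS promoter, chr1:155308616-155308915, plus strand: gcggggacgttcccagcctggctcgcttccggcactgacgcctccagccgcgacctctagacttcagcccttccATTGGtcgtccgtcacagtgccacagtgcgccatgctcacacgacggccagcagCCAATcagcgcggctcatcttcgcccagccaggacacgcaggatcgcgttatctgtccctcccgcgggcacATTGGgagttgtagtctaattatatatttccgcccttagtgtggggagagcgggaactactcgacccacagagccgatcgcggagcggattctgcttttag
HMGCS1 promoter, chr5:43313363-43313662, minus strand: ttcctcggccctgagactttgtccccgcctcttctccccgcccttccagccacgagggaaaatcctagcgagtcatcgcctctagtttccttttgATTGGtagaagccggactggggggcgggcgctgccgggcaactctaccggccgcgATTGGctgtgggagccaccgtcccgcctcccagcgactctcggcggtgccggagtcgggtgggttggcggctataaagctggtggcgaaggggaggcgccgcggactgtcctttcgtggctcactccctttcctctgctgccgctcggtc
STARD4 promoter, chr5:111512486-111512785, minus strand: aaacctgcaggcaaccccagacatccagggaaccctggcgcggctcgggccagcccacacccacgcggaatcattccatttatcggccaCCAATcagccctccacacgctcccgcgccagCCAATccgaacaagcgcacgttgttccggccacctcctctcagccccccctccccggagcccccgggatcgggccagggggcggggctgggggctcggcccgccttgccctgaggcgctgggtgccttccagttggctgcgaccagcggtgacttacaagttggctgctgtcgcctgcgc
The MVK window holds 5 CCAAT matches, the FDPS window 3, and the HMGCS1 and STARD4 windows 2 each. The second HMGCS1 window in the table, chr5:43313132-43313431, holds 0. The genes lower at 6 h and those lower later thus both have the box in a window, and no count was tested against the time course.

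All values below are log2 RMA values, where 1 unit is a doubling of probe signal; they allow comparison of a gene between groups but not of one gene with another. Changes are differences of group means ± standard error from limma over all 24 arrays, and a gene was called when its Benjamini-Hochberg adjusted p over all 14884 genes was under 0.05. In extracts of whole wells, fewer cells of a kind and less RNA per cell cannot be told apart. As a check of the label, the hepatocyte markers albumin (ALB) and APOB had group means of 12.2 to 12.4 and 12.5 to 12.6, on a scale that reached 13.7. One vehicle array stood apart. DMSO 6 h replicate 2 had a lowest correlation of 0.973 with its group, against lowest values of 0.995 to 0.996 in the other groups, and an array weight of 0.064. Where leaving it out changed whether a member passed, both values are given. The labels carry a letter of unstated meaning; the 6 h arrays of both treatments share 1 letter, and DMSO 24 h replicate 3 is the only 24 h array with a different one.

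**Figure D1:**
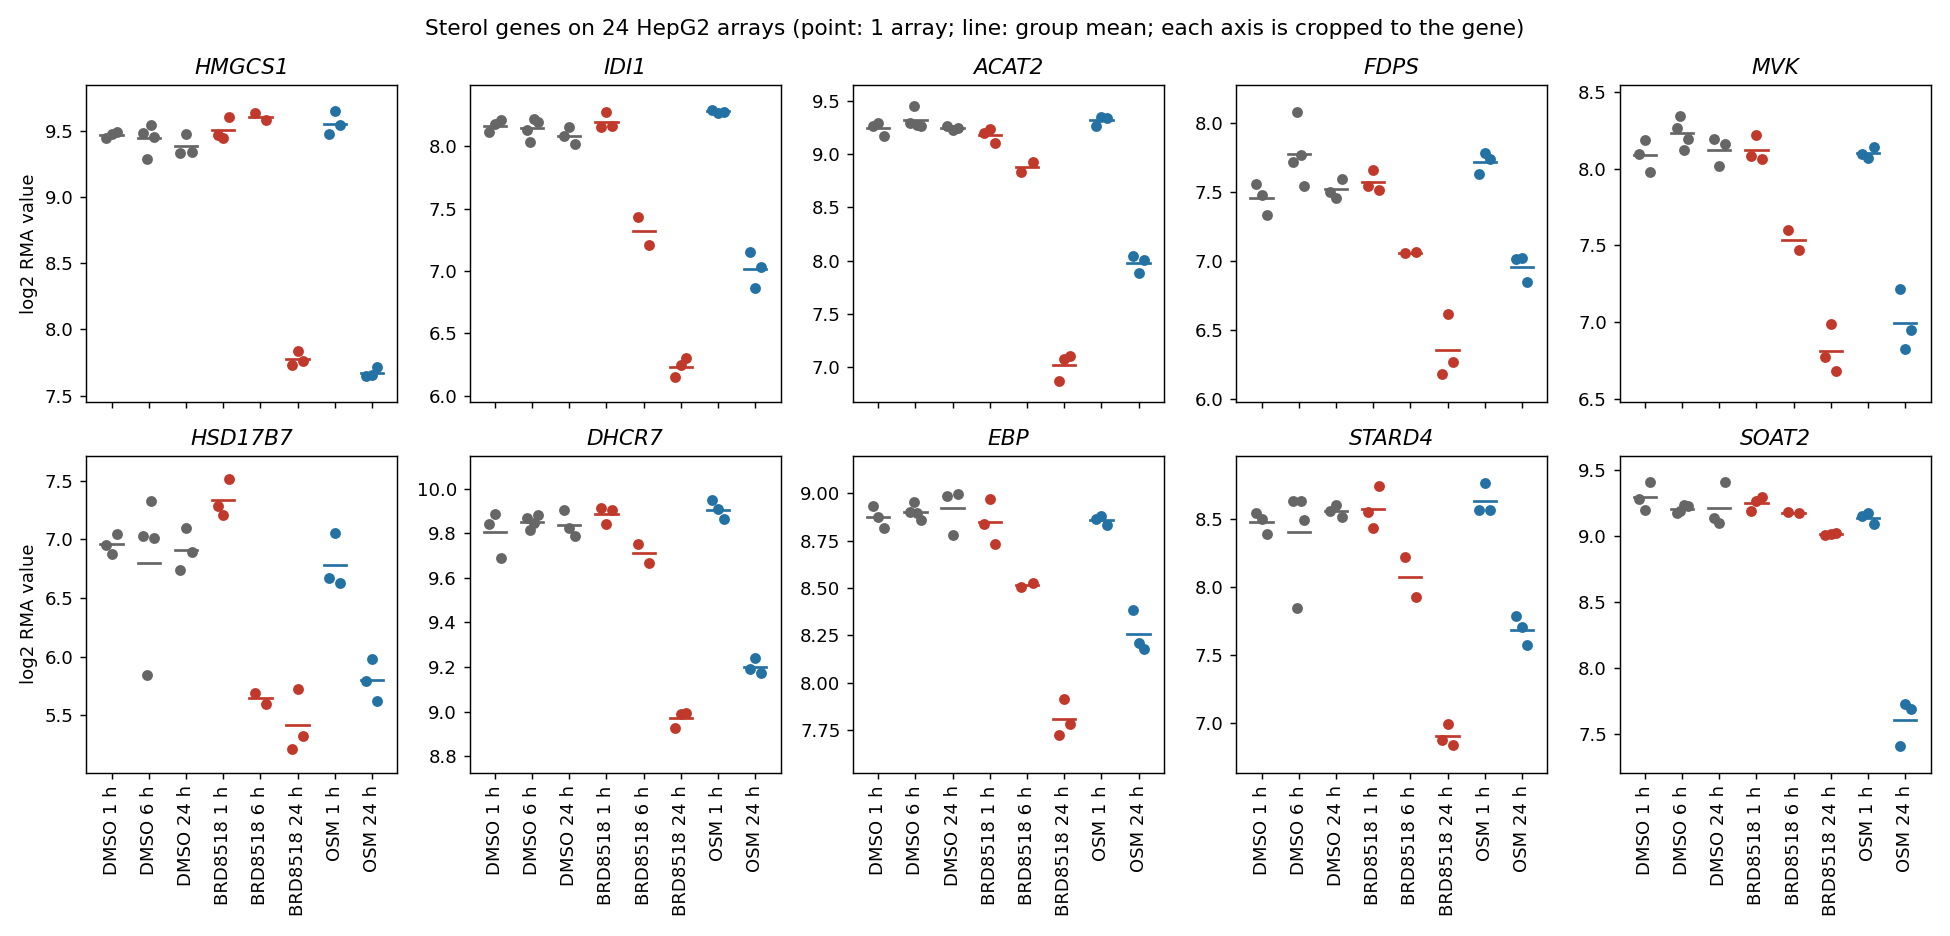
Log2 RMA value (y axis, cropped to each gene) of the 10 sterol genes in the 8 groups of treatment and time (x axis), with 1 point per array and a line at each group mean. The vehicle and 1 h arrays mostly lie together. For HSD17B7 (5.84) and STARD4 (7.85), DMSO 6 h replicate 2 lies below the other vehicle arrays. The 1 h BRD8518 arrays of HSD17B7 lie above its 1 h vehicle arrays. IDI1 and MVK step down at 6 and again at 24 h of BRD8518. HMGCS1 falls only at 24 h, and SOAT2 is low only in the 24 h OSM arrays.

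Vehicle group means varied little with time, but the 6 h vehicle group was not tested against the others. Its arrays spread widely for HSD17B7 (standard deviation 0.65) and STARD4 (0.37). Across the 3 vehicle times the group means of DHCR7 spanned 0.05, those of EBP 0.05 and those of ACAT2 0.08 log2 units, and the widest span was that of FDPS (0.32). Between 24 h and 1 h of vehicle, 0 of 10 members passed (limma; 0 at an unadjusted p under 0.05), against 0.0% of all genes called. At 1 h neither treatment moved a member past the threshold: 0 of 10 with BRD8518 (0 unadjusted; 0.255% of all genes called) and 0 of 10 with OSM (1 unadjusted; 2.84% of all genes called). The changes at 1 h ran from −0.07 (ACAT2) to 0.38 (HSD17B7) with BRD8518 and from −0.17 (HSD17B7) to 0.26 (FDPS) with OSM. Set against each other at 1 h, the treatments gave 0 of 10 members past the threshold (1 unadjusted, HSD17B7; 2.34% of all genes called). HSD17B7 passed there with DMSO 6 h replicate 2 dropped from the fit (0.55, limma adjusted p = 0.024).

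At 6 h of BRD8518, 6 of 10 members had fallen and 0 had risen, against 8.86% of all genes called lower and 5.62% called higher. The median change of the members was −0.41, against −0.01 over all genes. The 6 were not one segment of the pathway: ACAT2 opens it, MVK, IDI1 and FDPS follow in the isoprenoid stage, and HSD17B7 and EBP belong to the sterol stage. In a fit of the 6 h arrays alone, with only these 6 arrays to set the spread, 2 of the 6 stayed past the threshold, IDI1 and MVK.

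IDI1 had the smallest adjusted p of the members at this time. Its arrays read 7.43 and 7.21 with BRD8518, and 8.13, 8.04, 8.22 and 8.19 with vehicle, a change of −0.82 ± 0.09 (n = 2 and 4, limma adjusted p = 5e-07). The 2 treated arrays lay well below the 4 vehicle arrays. MVK read 7.60 and 7.47 against 8.27, 8.35, 8.12 and 8.19, without overlap, a change of −0.70 ± 0.11 (n = 2 and 4, limma adjusted p = 5.9e-05). FDPS read 7.05 and 7.07 against 7.72, 8.08, 7.77 and 7.54, the 8.08 being the vehicle array that stood apart, a change of −0.72 ± 0.12 (n = 2 and 4, limma adjusted p = 0.00023). All 3 enzymes work on the isoprenoid backbone, and for each of them the highest treated array was below the lowest vehicle array.

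HSD17B7, the keto reductase of the demethylation complex, had the largest change but also the widest spread. Its treated arrays read 5.69 and 5.60, against 7.03, 5.84, 7.33 and 7.01, where 5.84 is again the vehicle array that stood apart and comes close to the treated level. The change was −1.16 ± 0.25 (n = 2 and 4, limma adjusted p = 0.0025) and −1.48 without that array. HSD17B7 has a near-identical pseudogene copy, so its probe set may read more than 1 locus. ACAT2 fell less (8.83 and 8.92 against 9.29, 9.45, 9.27 and 9.26, change −0.44 ± 0.08), and so did EBP, the sterol isomerase (8.51 and 8.53 against 8.90, 8.96, 8.89 and 8.86, change −0.39 ± 0.08). For both, the groups did not overlap.

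HMGCS1, which stands between ACAT2 and MVK in the pathway, did not pass at 6 h. Its treated arrays of 9.63 and 9.58 lay above the vehicle arrays of 9.49, 9.29, 9.55 and 9.46, with a change of 0.16 ± 0.08 (95% interval −0.00 to 0.33, limma adjusted p = 0.21). DHCR7, the last reductase before cholesterol, read 9.75 and 9.67 against 9.87, 9.81, 9.85 and 9.88 (−0.14 ± 0.07, limma adjusted p = 0.20). SOAT2 read 9.18 and 9.17 against 9.17, 9.19, 9.23 and 9.23 (−0.03 ± 0.09, interval −0.22 to 0.16). STARD4 read 8.22 and 7.93 against 8.63, 7.85, 8.63 and 8.49, and its call rested on a single array. With all arrays its change was −0.33 ± 0.15 (n = 2 and 4, limma adjusted p = 0.19), and without DMSO 6 h replicate 2 it was −0.51 (limma adjusted p = 0.00066), which brings the count to 7 of 10.

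**Figure D2:**
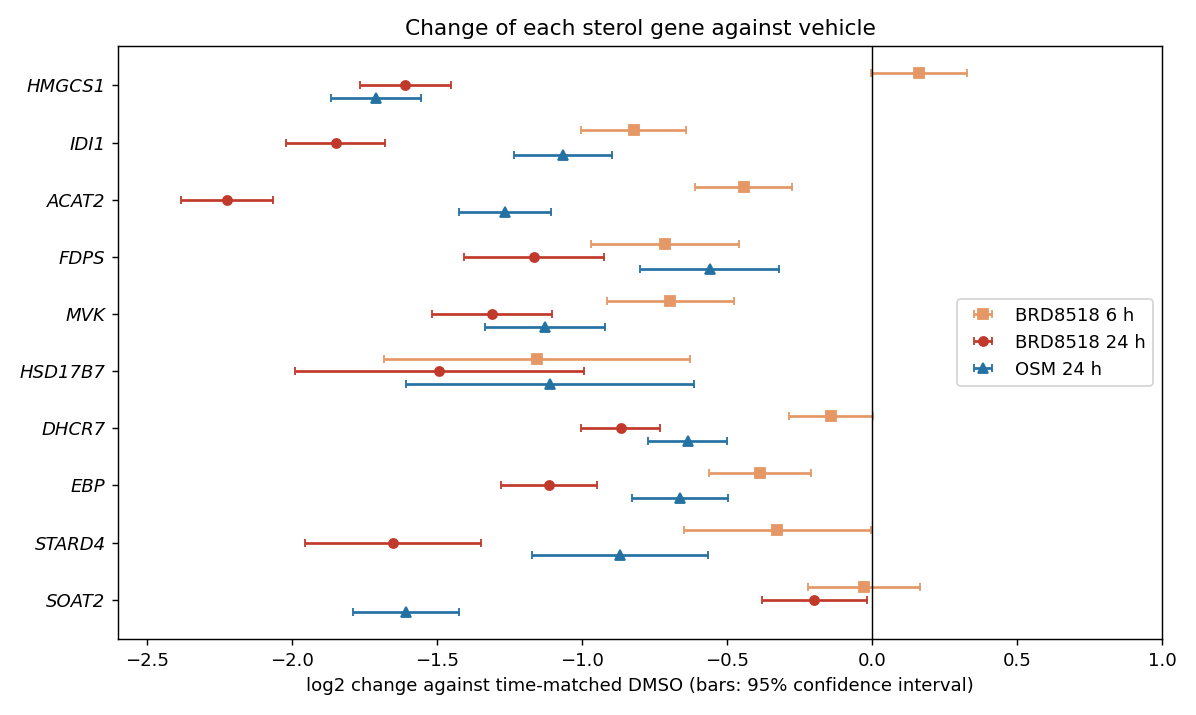
Log2 change of each sterol gene against time-matched DMSO (x axis; bars are 95% confidence intervals) at 6 and 24 h of BRD8518 and 24 h of OSM. HMGCS1 moves from 0.16 at 6 h to −1.61 at 24 h of BRD8518, and SOAT2 reaches −1.61 with OSM but −0.20 with BRD8518.

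By 24 h of BRD8518, 9 of 10 members had fallen and 0 had risen, against 15.6% of all genes called lower and 12.1% called higher. With the members chosen as stated at the start, this contrast with all genes only describes them. The median change was −1.40 (−0.00 over all genes). The count was 9 under each of the 10 other settings of the fit and each of the 6 fits with 1 array left out.

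The fall was deepest in ACAT2, at the pathway's entry. Its BRD8518 arrays read 6.88, 7.08 and 7.11, against 9.27, 9.23 and 9.24 with vehicle, a 4.67-fold lower signal (−2.22 ± 0.08, n = 3 and 3, limma adjusted p = 2.7e-15). No other member had a larger change in any comparison with DMSO. HMGCS1, which had not passed at 6 h, read 7.73, 7.83 and 7.76 against 9.34, 9.48 and 9.34, a 3.05-fold lower signal (−1.61 ± 0.08, n = 3 and 3, limma adjusted p = 3.4e-13). IDI1 read 6.15, 6.25 and 6.30 against 8.08, 8.15 and 8.02, a 3.61-fold lower signal (−1.85 ± 0.08). In each of these 3 genes the treated arrays lay close together and more than 1 log2 unit below vehicle.

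MVK read 6.77, 6.99 and 6.68 against 8.19, 8.02 and 8.16 (−1.31 ± 0.10). FDPS read 6.18, 6.61 and 6.27 against 7.50, 7.46 and 7.59 (−1.17 ± 0.12). Among the sterol-stage enzymes, EBP read 7.72, 7.91 and 7.78 against 8.99, 8.78 and 9.00 (−1.11 ± 0.08). DHCR7 read 8.93, 8.99 and 8.99 against 9.90, 9.82 and 9.79, the smallest of the 9 falls (−0.87 ± 0.07), and HSD17B7 read 5.21, 5.72 and 5.32 against 6.74, 7.10 and 6.89 (−1.49 ± 0.24). The sterol carrier STARD4 read 6.88, 6.99 and 6.84 against 8.56, 8.60 and 8.51 (−1.65 ± 0.15). Treated and vehicle arrays did not overlap for any of these 6 genes.

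SOAT2 was the exception. Its BRD8518 arrays of 9.00, 9.02 and 9.02 lay just under the vehicle arrays of 9.13, 9.10 and 9.41, and the change of −0.20 ± 0.09 did not pass (95% interval −0.38 to −0.02, limma adjusted p = 0.099).

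OSM at 24 h lowered 10 of 10 members, against 5.65% of all genes called lower and 4.6% called higher, with a median of −1.09 (0.01 over all genes). It shares its vehicle arrays with the 24 h BRD8518 comparison. HMGCS1 led: its OSM arrays read 7.65, 7.65 and 7.72, against 9.34, 9.48 and 9.34, a 3.27-fold lower signal (−1.71 ± 0.08, n = 3 and 3, limma adjusted p = 7.3e-13). SOAT2 was next, at 7.41, 7.72 and 7.69 against 9.13, 9.10 and 9.41, a 3.05-fold lower signal (−1.61 ± 0.09, n = 3 and 3, limma adjusted p = 1.6e-11). Thus the synthase at the entry of the pathway and the enzyme that esterifies its end product showed the 2 largest falls.

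ACAT2 read 8.04, 7.89 and 8.01 with OSM (−1.27 ± 0.08), and IDI1 7.15, 6.86 and 7.03 (−1.07 ± 0.08). MVK read 7.22, 6.82 and 6.95 (−1.13 ± 0.10), and FDPS, with the smallest change, 7.01, 7.02 and 6.84 (−0.56 ± 0.12, limma adjusted p = 0.0019). HSD17B7 read 5.79, 5.98 and 5.62 (−1.11 ± 0.24), EBP 8.38, 8.21 and 8.18 (−0.66 ± 0.08), DHCR7 9.19, 9.24 and 9.17 (−0.64 ± 0.07) and STARD4 7.79, 7.70 and 7.57 (−0.87 ± 0.15). In each of these 8 genes the OSM arrays lay below all 3 vehicle arrays given above.

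Set directly against each other at 24 h, the treatments differed in 7 of 10 members: 6 were lower with BRD8518 and 1 was higher, against 12.3% and 10.9% of all genes. The difference, BRD8518 minus OSM, was −0.96 ± 0.08 for ACAT2 (n = 3 and 3, limma adjusted p = 2.8e-09), −0.78 ± 0.08 for IDI1, −0.78 ± 0.15 for STARD4, −0.61 ± 0.12 for FDPS, −0.45 ± 0.08 for EBP and −0.23 ± 0.07 for DHCR7. SOAT2 was higher with BRD8518 by 1.41 ± 0.09 (n = 3 and 3, limma adjusted p = 4.6e-11), its lowest BRD8518 array being 9.00 and its highest OSM array 7.72. The DHCR7 difference missed the threshold without BRD8518 24 h replicate 1 (−0.21, limma adjusted p = 0.054).

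The other 3 members did not pass in that comparison. HMGCS1 differed by 0.10 ± 0.08 (95% interval −0.05 to 0.26), MVK by −0.18 ± 0.10 (−0.39 to 0.02) and HSD17B7 by −0.38 ± 0.24 (−0.88 to 0.12). The HSD17B7 difference passed with array weights (−0.35, limma adjusted p = 0.048) or without DMSO 6 h replicate 2 (−0.38, limma adjusted p = 0.043).

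**Figure D3:**
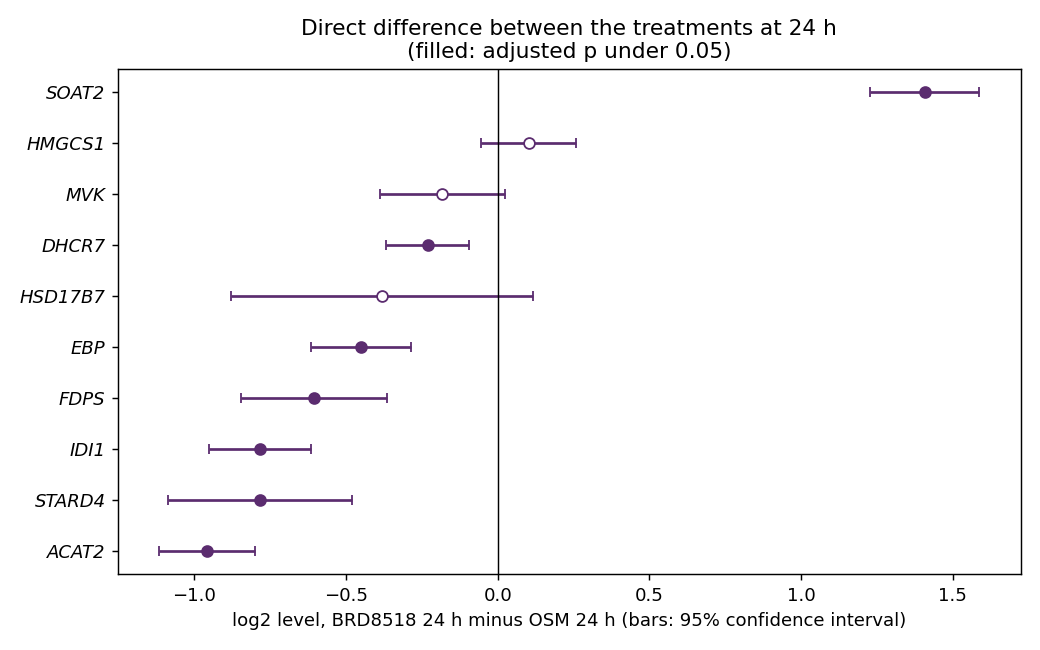
Difference in log2 level between BRD8518 and OSM at 24 h for each sterol gene (x axis; bars are 95% confidence intervals; filled points have an adjusted p under 0.05). ACAT2 (−0.96), STARD4 and IDI1 (both −0.78) are lower with BRD8518, and SOAT2 (1.41) stands alone on the other side.

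The time courses were compared by testing the difference between effects at successive times. From 1 to 6 h of BRD8518, the effect became more negative in 5 of 10 members (3.91% of all genes): HSD17B7 (−1.53 ± 0.35), IDI1 (−0.85 ± 0.12), FDPS (−0.84 ± 0.17), MVK (−0.73 ± 0.15) and ACAT2 (−0.38 ± 0.11, limma adjusted p = 0.046). ACAT2 lost this call in 8 of the 12 fits with 1 array left out. The count was 3 with the compared groups alone, with the position letter as a fixed term, or without BRD8518 6 h replicate 2, and 7 without DMSO 6 h replicate 2, when STARD4 (−0.61, limma adjusted p = 0.0041) and EBP (−0.34, limma adjusted p = 0.048) passed too.

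From 6 to 24 h of BRD8518, the effect became more negative in 7 of 10 members (5.12% of all genes). ACAT2 (−1.78 ± 0.11) and HMGCS1 (−1.77 ± 0.11) dropped most over this interval, followed by STARD4 (−1.33 ± 0.21), IDI1 (−1.03 ± 0.12), EBP (−0.73 ± 0.12), DHCR7 (−0.73 ± 0.10) and MVK (−0.61 ± 0.15). FDPS (−0.45 ± 0.17), HSD17B7 (−0.34 ± 0.35) and SOAT2 (−0.17 ± 0.13) did not pass. FDPS did pass without DMSO 6 h replicate 2 (−0.55, limma adjusted p = 0.0088), without BRD8518 24 h replicate 2 (−0.58, limma adjusted p = 0.022) and with array weights (−0.54, limma adjusted p = 0.0062). With all arrays HSD17B7 stood at −1.16 at 6 h and −1.49 at 24 h, whereas HMGCS1 stood at 0.16 at 6 h and −1.61 at 24 h. The 6 h fall of HSD17B7 was larger without DMSO 6 h replicate 2. Its BRD8518 means of 5.65 at 6 h and 5.42 at 24 h lay not far above the array medians of 4.89 to 4.95. Whether its probe set could read much lower was not tested. With OSM, sampled at 1 and 24 h only, the effect became more negative in 9 of 10 members (2.1% of all genes), from EBP (−0.65 ± 0.11) to HMGCS1 (−1.80 ± 0.11). HSD17B7 did not pass there with all arrays (−0.94 ± 0.34, limma adjusted p = 0.18), but the same change passed with DMSO 6 h replicate 2 dropped from the fit (limma adjusted p = 0.0041) or with the compared groups alone (limma adjusted p = 0.0068), and a change of −0.92 passed with array weights (limma adjusted p = 0.0027).

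Ordered by group mean, the lowest of the 8 groups was 24 h BRD8518 for 8 members and 24 h OSM for HMGCS1 and SOAT2. The arrays of the lowest and the next group did not overlap for 8 members; they did for MVK, where 24 h OSM came next, and for HSD17B7, where 6 h BRD8518 did (means 5.42 and 5.65). Neighbouring vehicle and 1 h groups overlapped in the arrays of 8 members. The exceptions were HSD17B7, whose 1 h BRD8518 arrays lay above all others except 1 vehicle array at 6 h (7.33), and SOAT2, whose highest 1 h OSM array (9.172) lay just below the lowest 6 h vehicle array (9.174). Over the 8 group means, each member's Pearson correlation with the mean of the other 9 was 0.865 (HSD17B7) to 0.990 (MVK) for 9 members and 0.544 for SOAT2. These points share vehicle levels and 24 h falls, so the values only describe the shape.

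The rest of the pathway was read from 6 further lists, of whose 70 genes 35 were measured. Other cholesterol synthesis enzymes, 10 of 17 measured, fell with the members. At 6 h of BRD8518, 3 were lower and 0 higher, against 8.86% and 5.62% of all genes. At 24 h of BRD8518, 7 were lower and 0 higher, against 15.6% and 12.1% of all genes. At 24 h of OSM, 7 were lower and 0 higher, against 5.65% and 4.6% of all genes. The medians were −0.21, −0.90 and −0.54. At 24 h of BRD8518 the leaders were MVD, the decarboxylase after MVK (−1.34 ± 0.13), MSMO1, the sterol methyl oxidase (−1.27 ± 0.13), and TM7SF2, a sterol reductase (−1.24 ± 0.11). With OSM they were MSMO1 (−0.95 ± 0.13), SQLE, the squalene epoxidase (−0.91 ± 0.09), and MVD (−0.84 ± 0.13). At 6 h they were MVD (−0.45 ± 0.14), NSDHL (−0.33 ± 0.08) and LBR (−0.31 ± 0.07). ACAT1, the mitochondrial thiolase, did not pass at 24 h of either treatment (−0.02 ± 0.15 and −0.03 ± 0.15).

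The genes that control SREBP moved little. Of 6 measured, RNF139 was higher at 6 h of BRD8518 (0.31 ± 0.10), SREBF1 lower at 24 h of BRD8518 (−0.47 ± 0.14) and SREBF2, which encodes SREBP2, lower at 24 h of OSM (−0.32 ± 0.08). The matching shares of all genes were 5.62% higher, 15.6% lower and 5.65% lower. SREBF2 was at −0.05 ± 0.08 at 24 h of BRD8518 and did not pass. INSIG1, which retains the SREBP complex and is itself a known SREBP target, was at 0.04 ± 0.12 with BRD8518 and 0.16 ± 0.12 with OSM at 24 h, neither passing. Its group means of 3.80 to 4.11 lay below the array medians of 4.89 to 4.95, so its probe set gave little signal in which to see a change. These are transcript levels, and processing of the SREBP proteins was not measured.

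Genes for sterol movement and storage went both ways, while the only uptake gene called against DMSO was higher. Of 3 uptake genes measured, VLDLR, the receptor for very low density lipoprotein, rose at 24 h with BRD8518 (1.79 ± 0.10) and with OSM (0.65 ± 0.10). Of 12 genes for movement and storage, 3 were higher and 1 lower at 6 h of BRD8518, 5 and 3 at 24 h, and 2 and 2 at 24 h of OSM. Of all genes, 5.62% were higher and 8.86% lower at 6 h of BRD8518, and 12.1% and 15.6% at 24 h. The shares at 24 h of OSM were 4.6% and 5.65%. GRAMD1A, which moves cholesterol from the plasma membrane to the endoplasmic reticulum, rose at 6 h (0.71 ± 0.12) and 24 h (1.17 ± 0.11) of BRD8518 and at 24 h of OSM (0.69 ± 0.11). NCEH1, a cholesteryl ester hydrolase, rose in the same 3 comparisons (0.41 ± 0.11, 0.67 ± 0.11 and 0.39 ± 0.11). CES1, a carboxylesterase, rose at 6 h (0.50 ± 0.11) and 24 h (0.55 ± 0.11) of BRD8518 and fell with OSM (−0.50 ± 0.11).

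TMEM97, a sterol-responsive membrane protein, fell at 24 h with BRD8518 (−0.83 ± 0.09) and OSM (−0.67 ± 0.09). STARD5, a relative of STARD4, fell at 6 h (−0.72 ± 0.09) and 24 h (−0.61 ± 0.08) of BRD8518. It was also lower at 1 h of OSM (−0.35), the only gene of these 6 lists called against DMSO at 1 h. That is 1 of 35 measured, where 0.813% of all genes were called lower at 1 h of OSM. SOAT1, the other cholesterol-esterifying enzyme, fell at 24 h of BRD8518 (−0.46 ± 0.12) but not with OSM (−0.13 ± 0.12), so SOAT1 and SOAT2 each passed with a different treatment; a difference between the 2 genes was not tested. On the isoprenoid branches DOLK (−0.40 ± 0.09) and NUS1 (−0.38 ± 0.08), both of dolichol synthesis, fell at 24 h of BRD8518, 2 of 3 measured (15.6% of all genes). CH25H, the only LXR and oxysterol list gene measured of 9, passed there with a difference of 0.23 ± 0.08, but at means of 2.89 and 3.12, far below the array medians, where its level cannot be told from background.

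**Figure D4:**
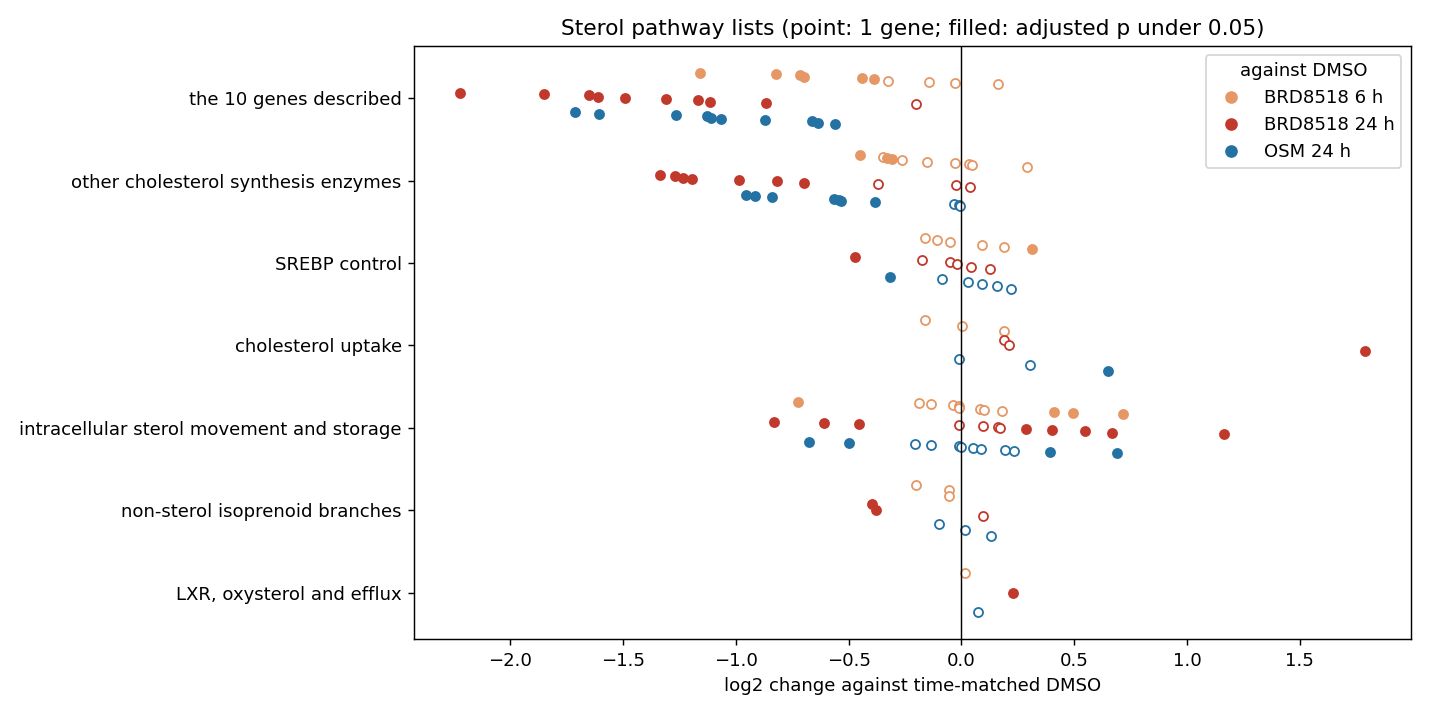
Log2 change against time-matched DMSO (x axis) of every measured gene of the 10 described and of 6 sterol pathway lists (y axis), with 1 point per gene, filled where the adjusted p is under 0.05. The synthesis enzymes that passed lie to the left of 0, VLDLR is the point at 1.79, and the SREBP control genes lie between −0.47 and 0.31.

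Genes alike in pattern were sought outside the members, these lists and the cell type markers read below, among 4415 with a span of at least 0.5. Over the 8 group means, LCAT (r = 0.993), which esterifies cholesterol in plasma, most resembled the members' mean standardised profile. USP18 (0.992), FADS2, a fatty acid desaturase (0.991), MLXIPL, a glucose-responsive transcription factor (0.988), and F11, a coagulation factor (0.988), followed. These 5 genes were chosen for this likeness. Their changes at 24 h of BRD8518 were −1.11, −1.02, −0.90, −1.06 and −1.39, in the same order.

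Some markers of cell identity were also called at these times. Of 6 hepatocyte markers measured, 4 fell at 24 h of BRD8518 and of OSM, against 15.6% and 5.65% of all genes. Among them was TTR (−0.75 ± 0.07 and −0.46 ± 0.07), while ALB did not pass (−0.18 ± 0.07 and −0.22 ± 0.07). At 6 h of BRD8518, 2 of the 6 were lower, APOA1 (−0.52 ± 0.16) and TF (−0.28 ± 0.06), against 8.86% of all genes. The log2 of the summed hepatocyte signal ranged from 14.34 to 14.39 in vehicle at 24 h, 14.03 to 14.10 with BRD8518 and 14.10 to 14.15 with OSM. Of 4 macrophage and leukocyte markers measured of 5, CD68, a lysosomal protein, was higher at 6 h of BRD8518 (0.51 ± 0.08), rose from 9.58 to 10.8 at 24 h (1.19 ± 0.08) and was higher at 24 h of OSM (0.34 ± 0.08). CD14 was higher at 1 h (0.78 ± 0.14) and 24 h (0.74 ± 0.14) of OSM. CD14 (0.05 ± 0.14), CD163 (−0.14 ± 0.12) and CSF1R (0.20 ± 0.13) did not pass at 24 h of BRD8518. The summed signal of that list ranged from 9.64 to 9.83 in vehicle at 24 h, 10.8 to 10.9 with BRD8518 and 10.0 to 10.1 with OSM. That sum was taken on unlogged values, so it mostly restates CD68. At 24 h of BRD8518 the other means were 5.06 (CD14), 3.56 (CD163) and 5.82 (CSF1R). Of the 4 biliary markers, KRT19 rose at 24 h of BRD8518 (0.97 ± 0.10). KRT7 (−0.09), SOX9 (−0.06) and EPCAM (−0.21) did not pass there. SOX9 was higher at 1 h of BRD8518 (0.27 ± 0.06) and at 24 h of OSM (0.21 ± 0.06). KRT19 (−0.06), KRT7 (0.22) and EPCAM (−0.09) did not pass at 24 h of OSM. PECAM1, of 3 endothelial markers measured, fell at 24 h of OSM (−0.43 ± 0.10). VWF (0.06 ± 0.10) and KDR (0.05 ± 0.12) did not pass there. Called at 24 h of BRD8518 were 1 of 4 macrophage and leukocyte, 1 of 4 biliary and 0 of 3 endothelial markers. At 24 h of OSM the counts were 2 of 4, 1 of 4 and 1 of 3. Of all genes, 12.1% were higher and 15.6% lower at 24 h of BRD8518, and 4.6% and 5.65% at 24 h of OSM. The shares higher were 0.222% at 1 h and 5.62% at 6 h of BRD8518, and 2.03% at 1 h of OSM. The part of any of these markers in the fall of the sterol genes was not tested.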

How the data were processed

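Arrays of 24 HepG2 samples in 8 groups were used. Per the submitters' processing notes, the authors used oligo and RMA (versions not given in the sources used here), and the deposited values are log2. They ranged from 0.913 to 13.7 over 53617 probe sets (array medians 4.89 to 4.95) and were used as deposited. RMA gives no detection calls, and the number of arrays limits the precision. The platform table named 1 symbol for 16098 probe sets, all found in RefSeq with 0 symbols changed, and left 37519 unnamed here. For 779 genes with several probe sets the one with the highest mean was kept, leaving 14884 genes with no filter on low values.

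limma 3.58.1 (R 4.3.3) fitted 1 mean per group over all 24 arrays (lmFit, contrasts.fit, eBayes, two-sided) for 11 contrasts, with Benjamini-Hochberg adjustment over all genes of each contrast and a threshold of 0.05. The script was tested on simulated data. Alternatives were averaging the probe sets of a gene, a filter on low values, median centring, quantile normalization, trend and robust moderation, the compared groups alone, array weights, the position letter as a random or fixed term, and leaving out arrays. Promoter windows were searched with Python 3.11.

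The members and lists were chosen with earlier results of these data known. All members are named; from each list, up to 3 genes per direction and comparison with the largest called change, and the 5 genes most alike in pattern. ACAT1, INSIG1 and values that did not pass were added, and the 6 motifs chosen, after the data were seen. Other doses were not analysed here.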

Additional observations from a re-analysis of the deposited data

Results flagged for a closer look

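ACAT2 in DMSO 6 h replicate 2 read 9.45, against 9.26 to 9.29 in the other 3 arrays of that group, a gap to its neighbours of 0.849 of the group's range, above the 95% critical value of Dixon's test for 4 samples, which chance alone passes in about 5% of groups. The same array, high for ACAT2, was low for HSD17B7 (5.84) and STARD4 (7.85).

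The effect of a treatment differed between times, by a test of the difference itself, for the following members. For BRD8518 at 6 h against 1 h the differences were −0.85 for IDI1, −0.38 for ACAT2, −0.84 for FDPS, −0.73 for MVK and −1.53 for HSD17B7. For BRD8518 at 24 h against 6 h they were −1.77 for HMGCS1, −1.03 for IDI1, −1.78 for ACAT2, −0.61 for MVK, −0.73 for DHCR7, −0.73 for EBP and −1.33 for STARD4. For OSM at 24 h against 1 h they were −1.80 for HMGCS1, −1.18 for IDI1, −1.34 for ACAT2, −0.82 for FDPS, −1.14 for MVK, −0.74 for DHCR7, −0.65 for EBP, −1.02 for STARD4 and −1.45 for SOAT2.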

How the results depend on the processing

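The count of members past the threshold did not change under any of 10 alternatives or 6 fits with an array left out at 24 h of BRD8518 (9) and of OSM (10). At 6 h of BRD8518 it was 6, and 2 in a fit of the compared groups alone, where ACAT2 (adjusted p = 0.089), FDPS (0.057), HSD17B7 (0.18) and EBP (0.10) kept their direction but missed the threshold; other settings gave 6 or 7. Between BRD8518 and OSM at 1 h it was 0, and 1 with array weights or with DMSO 6 h replicate 2 dropped (HSD17B7, higher). For the BRD8518 effect at 6 h against 1 h it was 5, 3 with the compared groups alone, 3 with the position letter as a fixed term, and 3 to 7 with 1 array left out. MVK missed the threshold for 24 h against 6 h without BRD8518 6 h replicate 1 (−0.55, adjusted p = 0.054), and FDPS passed there with the mean of its probe sets (−0.71). Of 1940 single-gene values under alternatives, 0 reversed a called direction, 19 lost a call and 24 gained one. The position letter could not be told apart from time at 6 h. Without DMSO 24 h replicate 3, the 24 h arrays all share 1 letter, and the counts were 9 and 10. No paired analysis was possible because the replicate numbers follow accession order and pair no arrays. With 2 to 4 arrays a group and no detection calls, small changes of dim genes are not resolved.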

Other observations

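FDPS is read by a second probe set, dimmer than the one used above. Its group means were 6.47 with vehicle and 6.15 with BRD8518 at 6 h, and at 24 h 6.45 with vehicle, 5.17 with BRD8518 and 5.96 with OSM. Both probe sets were lowest in the 24 h BRD8518 arrays. The 6 h difference was smaller on the second one, −0.32 against −0.72. At 1 h of OSM the second one changed by −0.08, against 0.26 on the one used above. Its OSM effect at 24 h minus that at 1 h was −0.41, against −0.82.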
